A study of Mus musculus with 6 samples.

Results

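The genes described here encode cell surface receptors of myeloid cells that come in activating and inhibitory forms, together with the adaptor through which several of the activating forms signal. They are Gp49a, Lilrb4 and Pirb of the leukocyte immunoglobulin-like receptor family, Cd300a, Cd300lf, Cd300lb and Cd300ld of the Cd300 family, Trem1 and Trem3 of the Trem family, and Tyrobp, which encodes the adaptor DAP12. These 10 symbols were taken by name from a table of 24063. They were selected on their read counts and on the difference between the groups in these same libraries, so that difference is given for them as a description and carries no test.

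Inhibitory receptors of this kind carry ITIMs, tyrosine motifs in the cytoplasmic tail that recruit the phosphatases SHP-1 and SHIP. Activating partners have short tails and bind an adaptor such as DAP12 or the Fc receptor gamma chain, whose ITAM, a motif with a pair of tyrosines, recruits the kinase Syk. In bone marrow these receptors are known mainly from monocytes, macrophages, neutrophils and mast cells, where they set the threshold of inflammatory responses.

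RNA was sequenced from LSK cells, the lineage-negative, Kit- and Sca1-positive fraction of bone marrow that holds haematopoietic stem cells and early progenitors. There were 3 libraries labelled knockout (Arid2fl/fl:MxCre+) and 3 control libraries (MxCre+), all on the C57/BL6 background. Mice of both groups were injected with pIpC at 6 to 8 weeks of age and their cells were sorted 6 weeks later, so both carry Cre from the interferon-inducible Mx1 promoter, which is active in many cell types besides blood stem cells, and both met an inducer of interferon. Nothing in the labels says which animals the libraries came from, so the spread between libraries may be partly technical.

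The libraries held between 12408966 and 28185678 counted reads. The targeted gene Arid2 had 162, 150 and 155 CPM (reads scaled to a common library size with TMM factors) in the libraries labelled knockout and 165, 154 and 148 CPM in controls, so its reads over the whole gene do not bear out the label; whether a floxed exon is missing was not tested. Every direction below rests on the labels. By Xist and Y-linked genes, the libraries labelled knockout and control replicate 2 came from females and control replicates 1 and 3 from males. Kit of the sort gate had 426 to 446 CPM in the libraries labelled knockout and 493 to 655 CPM in controls, and Ly6a, which encodes Sca1, had 12.4 to 15.3 CPM against 18.2 to 22.3 CPM.

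Where the genes differ in sequence sets how they can signal and how well their reads can be told apart. Gp49a (now Lilr4b) and Lilrb4 (now Lilrb4a) are plus-strand neighbours on chromosome 10 of mm10, at 51480632 to 51486703 and 51490956 to 51496611, and 96.0% of 907 aligned coding bases are identical. The aligned stretch of 90 bases in which they differ most, within a single exon of each, is shown as an example of where reads of the neighbours can be told apart, with the 11 bases that differ within it in capitals (GENCODE M21 transcripts).
Gp49a, chr10:51481283-51481372, plus strand: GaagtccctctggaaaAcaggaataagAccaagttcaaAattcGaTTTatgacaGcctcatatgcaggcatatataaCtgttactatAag
Lilrb4, chr10:51491577-51491666, plus strand: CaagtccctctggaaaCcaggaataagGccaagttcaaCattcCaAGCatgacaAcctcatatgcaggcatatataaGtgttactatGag
Of all runs of 50 bases in their transcripts, 22.9% of those of Gp49a also occur in Lilrb4a and 27.8% of those of Lilrb4 in Lilr4b. GENCODE places a further protein-coding model, Gm49339, across both. For Pirb the share found in other genes was 37.3%, mostly of the neighbouring Pira family, and for Cd300lf, Cd300ld and Cd300a it was 6.38%, 3.89% and 3.31%. Cd300lb, Trem1, Trem3 and Tyrobp shared none with genes elsewhere. Gene models that overlap the locus itself, Gm49339 among them, were left out of all these shares. Such models also lie over Cd300lb (Gm11699) and Trem1 (AC241601.2). The sources used here do not give how reads of near-identical stretches were assigned, and the values of Gp49a, Lilrb4 and Pirb are uncertain to that extent.

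The signalling motifs divide the genes into receptors with ITIMs, receptors without, and the adaptor. A search of the coding sequences past the most hydrophobic stretch found 2 ITIMs in Lilrb4, 3 in Pirb and 2 each in Cd300a and Cd300lf, and none in Gp49a, Cd300lb, Cd300ld, Trem1 or Trem3. Gp49a is thus the near copy of Lilrb4 that lacks the inhibitory motif. The hydrophobic stretch held a lysine or arginine codon in Cd300lb, Trem1 and Trem3 and an aspartate codon in Tyrobp; such opposite charges are known to hold DAP12 to its receptors. The coding bases of the Lilrb4 and Cd300lf motifs and of the Tyrobp ITAM are given with the tyrosine codons in capitals; that of Tyrobp is joined from 2 exons.
Lilrb4, first ITIM, chr10:51496021-51496038, plus strand: attgtcTACgcccaggta
Lilrb4, second ITIM, chr10:51496194-51496211, plus strand: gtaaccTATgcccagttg
Cd300lf, first ITIM, chr11:115117648-115117665, minus strand: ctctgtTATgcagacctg
Cd300lf, second ITIM, chr11:115117112-115117129, minus strand: gtttcaTATgccgctctg
Tyrobp, ITAM, chr7:30415670-30417382, plus strand: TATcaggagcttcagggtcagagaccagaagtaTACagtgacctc

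The adaptor gene Tyrobp was the most abundant of the set. It had 183, 185 and 164 CPM in the libraries labelled knockout, against 139, 140 and 101 CPM in controls. All 3 libraries labelled knockout lay above all 3 controls, with control replicate 3 the lowest. The means were 177 ± 11.5 and 127 ± 22.3 CPM (SD, n = 3 each), and the log2 fold change was 0.48 (SE 0.12). Tyrobp lies on chromosome 7 (30413760 to 30417585, plus strand), and Hcst, which encodes the related adaptor DAP10 and is transcribed towards it from the next locus, had 11.05, 11.3 and 8.75 CPM in the libraries labelled knockout and 11.4, 10.2 and 8.54 CPM in controls, with groups that overlapped.

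Among receptors with ITIMs, Lilrb4 had 34.1, 35.2 and 47.8 CPM in the libraries labelled knockout, against 15.6, 20.5 and 18.4 CPM in controls. The groups were well apart, with replicate 3 the highest of the libraries labelled knockout, and the log2 fold change was 1.09 (SE 0.16). Lilrb4 is an inhibitory receptor of mast cells, neutrophils and macrophages, and a human relative, LILRB4, is known from monocytic leukaemia cells. Pirb, an inhibitory receptor that binds MHC class I, had 42.8, 52.3 and 65.6 CPM in the libraries labelled knockout and 26.5, 39.4 and 31.9 CPM in controls. Its groups came close, with control replicate 2 just under the lowest library labelled knockout, and the log2 fold change was 0.71 (SE 0.18).

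Cd300a and Cd300lf (also CLM-1) encode inhibitory receptors that bind phospholipids exposed on dying cells. Cd300a had 84.8, 98.7 and 91.6 CPM in the libraries labelled knockout and 66.8, 71.2 and 65.8 CPM in controls. The controls lay close together below all libraries labelled knockout, and the log2 fold change of 0.43 had the smallest SE of the 10 genes (0.07). Cd300lf had 21.7, 15.9 and 18.9 CPM in the libraries labelled knockout against 9.65, 10.4 and 6.54 CPM in controls. The groups did not overlap and the log2 fold change was 1.07 (SE 0.19). Cd300lf lies on chromosome 11 (115116214 to 115133992, minus strand) inside the span of Rab37, which is on the opposite strand.

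Gp49a, the ITIM-less copy of Lilrb4, had 16.1, 19.2 and 24.9 CPM in the libraries labelled knockout, against 7.81, 9.10 and 11.3 CPM in controls. The groups did not overlap, replicate 3 was the highest in each, and the log2 fold change was 1.09 (SE 0.19), the value of Lilrb4. Because their reads may be shared, both were also summed as 1 gene: the sum was 50.3, 54.4 and 72.7 CPM in the libraries labelled knockout and 23.4, 29.6 and 29.7 CPM in controls, with a log2 fold change of 1.09 (SE 0.15). With equal fold changes of both genes the sum had to give the same value, so it does not show how reads were divided.

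Of the activating Cd300 receptors, Cd300lb (also CLM-7, which signals through DAP12) had 34.5, 42.3 and 33.2 CPM in the libraries labelled knockout and 29.2, 28.3 and 22.7 CPM in controls. The groups did not overlap but were close, and the log2 fold change was 0.46 (SE 0.13). Cd300ld (also CLM-5, which pairs with the Fc receptor gamma chain) had 14.9, 13.2 and 23.8 CPM in the libraries labelled knockout, against 4.55, 9.70 and 6.96 CPM in controls. It had the highest log2 fold change of the 10 genes, 1.26, and also the largest SE, 0.30, since replicate 3 stood above the other libraries labelled knockout and control replicate 2 above the other controls.

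Trem1, an amplifier of inflammatory signals in neutrophils and monocytes, had 14.0, 13.7 and 9.55 CPM in the libraries labelled knockout and 10.4, 10.3 and 6.68 CPM in controls. Replicate 3 was the lowest in each group and the groups overlapped; the log2 fold change was 0.44 (SE 0.22). Trem3, an activating receptor that mice express and humans carry as a pseudogene, had 125, 90.3 and 89.8 CPM in the libraries labelled knockout and 95.2, 82.6 and 40.3 CPM in controls. Its groups overlapped as well, and the log2 fold change of 0.48 (SE 0.27) became 0.19 without control replicate 3.

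**Figure D1:**
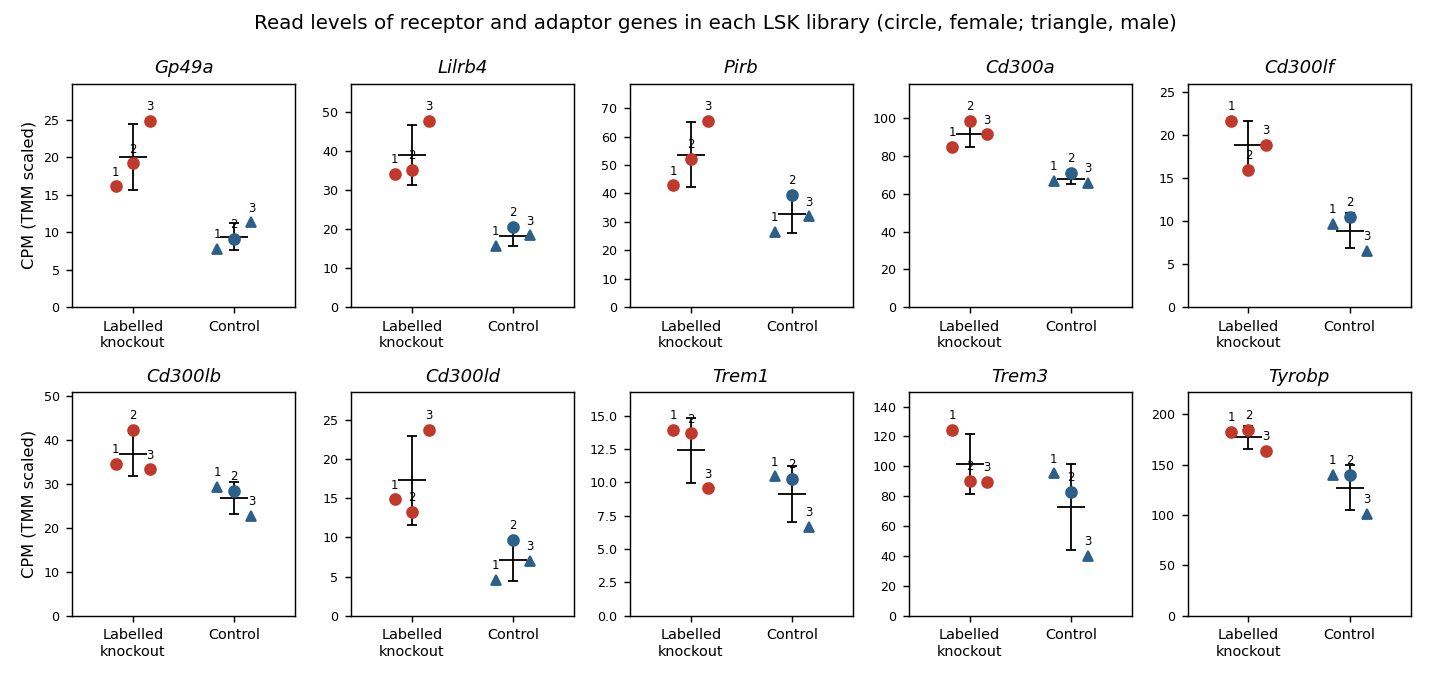
CPM after TMM scaling (vertical axes, starting at 0) of the 10 genes in each library, with the replicate number beside each point and bars for the mean and SD of 3 libraries. In 8 panels every library labelled knockout lies above every control, and in those of Trem1 and Trem3 the groups overlap.

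All 10 genes passed the filter on low counts, with 74 to 4583 reads per library, and all had positive log2 fold changes, from 0.43 to 1.26 with a median of 0.59 against −0.00156 over all 13679 tested symbols. In edgeR's quasi-likelihood test 7 of the 10 were past an adjusted p of 0.05 and higher, where 3.85% of all tested symbols were; Cd300lb, Trem1 and Trem3 were not. DESeq2 placed 8 past it (6.09% of all symbols) and limma-voom 5 (3.71%). In 8 the groups did not overlap with the libraries labelled knockout higher, which held for 15.1% of all tested symbols. Both counts come from the values in view when the genes were chosen, so nothing is read from them. The log2 fold changes spread into a higher set (Cd300ld, Lilrb4, Gp49a and Cd300lf, 1.07 to 1.26), Pirb at 0.71, and a lower set (Tyrobp, Trem3, Cd300lb, Trem1 and Cd300a, 0.43 to 0.48). The higher and lower sets each hold receptors with and without ITIMs.

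Control replicate 2, the female control, exceeded the mean of the male controls in 9 of the 10 genes. The log2 difference, female minus male, ran from −0.07 for Gp49a to 0.75 for Cd300ld. When sex was added to the model, the log2 fold changes were 0.28 to 1.13, with a median of 0.41, and only control replicate 2 then stands against the libraries labelled knockout. Gp49a had 1.13, Lilrb4 0.92, Cd300lf 0.85, Cd300ld 0.82 and Pirb 0.44. None of the 10 was then past the threshold in edgeR (0.0512% of all tested symbols were called higher). In the female libraries alone, a subset taken after seeing the data, edgeR again called none of the 10 (0.0693% of all symbols higher), and 6 had an unadjusted p under 0.05. Of the libraries labelled knockout, leaving out replicate 1 gave 4 genes past the threshold (1.93% of all symbols were then called higher), leaving out replicate 2 gave 2 (0.864%) and leaving out replicate 3 gave 4 (1.49%). Of the controls, leaving out replicate 1 gave 2 (1.36%), leaving out replicate 2 gave 6 (3.2%) and leaving out replicate 3 gave 5 (3.1%). Lilrb4 was past it in all 6 of these fits, Cd300lf in 5, Gp49a and Cd300a in 4, Pirb in 2, and Cd300ld and Tyrobp in 1. Because the genes were chosen on this difference, these calls only describe how far it rests on single libraries and are no test of it.

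**Figure D2:**
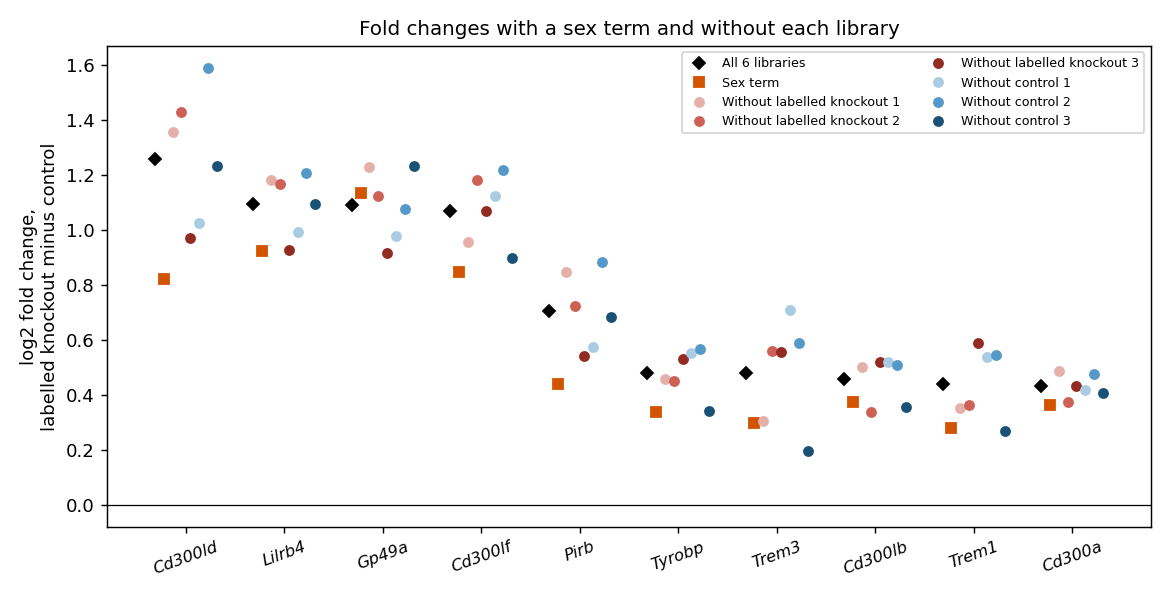
Log2 fold change (vertical axis, libraries labelled knockout minus controls) of each gene with all 6 libraries, with a sex term, and without each library in turn. Every value is above 0, from 0.19 to 1.59 without a library. Trem3 without control replicate 3 is the lowest and Cd300ld without control replicate 2 the highest. The genes were chosen on this difference, and for the 8 whose groups do not overlap leaving out 1 library could hardly reverse the sign.

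Within the libraries labelled knockout the genes peaked in different replicates. Gp49a, Lilrb4, Pirb and Cd300ld were highest in replicate 3, Cd300lf, Trem1 and Trem3 in replicate 1, and Cd300a, Cd300lb and Tyrobp in replicate 2. Tissue macrophage markers summed to 386, 530 and 982 CPM in replicates 1 to 3 of the libraries labelled knockout and to 215, 307 and 388 CPM in controls. Neutrophil markers summed to 9217, 7194 and 7818 CPM and to 5759, 4776 and 2982 CPM in controls, and monocyte markers to 3632, 3904 and 3421 CPM and to 2378, 2795 and 1962 CPM in controls. The 10 genes together had 570, 566 and 569 CPM in the libraries labelled knockout and 405, 422 and 312 CPM in controls. Fewer cells of a type and less RNA per cell cannot be told apart in these bulk libraries, and the part of such cells in the values above was not tested.

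**Figure D3:**
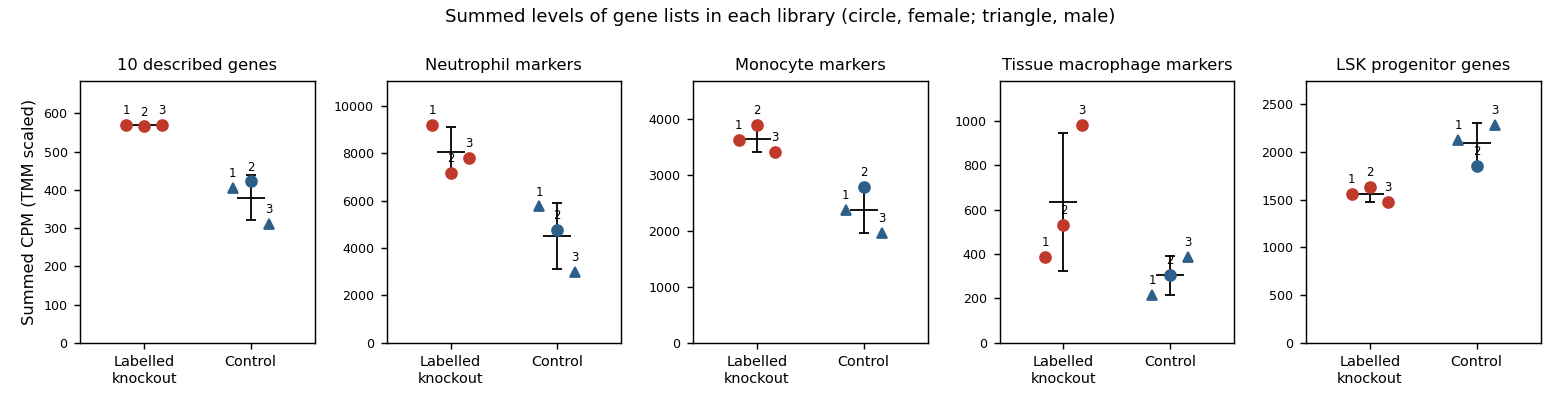
Summed CPM (vertical axes, starting at 0) of the 10 genes and of marker lists in each library, with bars for the mean and SD of 3 libraries. Neutrophil and monocyte sums are higher in every library labelled knockout than in every control, tissue macrophage sums overlap narrowly and are highest in replicate 3 labelled knockout, and progenitor sums are lower in every library labelled knockout.

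The markers behind those sums differed between cell types. Beside the edgeR counts below, 3.85% of all tested symbols were called higher and 4.58% lower. Of 14 neutrophil genes 13 were tested and 5 rose, namely Cd177 (log2 fold change 1.49, edgeR adjusted p = 0.00345), Lcn2 (1.07), Ifitm6 (0.96), Ltf (0.67) and Ngp (0.65), while the abundant S100a8 and S100a9 had 0.93 and 0.89 and did not pass. Camp (0.83) did not pass either. Il1r2 (0.48), Retnlg (0.35), Cxcr2 (0.21), Mmp8 (0.02) and Mmp9 (−0.14) had groups that overlapped and did not pass. Most of the neutrophil sum came from S100a9, S100a8, Ngp and Camp. Of 14 monocyte genes 7 rose, among them the lysozyme gene Lyz2 (0.71, edgeR adjusted p = 0.00373) and the chemokine receptor gene Ccr2 (0.76, edgeR adjusted p = 0.00623), with Ly6c2 at 0.78 not past the test. Of 10 tissue macrophage genes tested 1 rose in edgeR with all libraries, the scavenger receptor gene Marco, to 7.87, 10.6 and 22.6 CPM in the libraries labelled knockout, against 0.0615, 0.249 and 0.207 CPM in controls, where 1, 7 and 3 reads were counted; the complement genes C1qa and C1qb had 1.31 and 1.37 and did not pass. No marker in these 3 lists was at 0 in all libraries. Dendritic cell markers had 2 higher of 11 (Xcr1, 1.09, and Bst2, 0.36), with Cd74 at 0.78 and H2-Ab1 at 0.68 not past the test. Cd209a (−0.32), Ccr9 (−0.78) and Flt3l (−0.07) went the other way and did not pass either. The dendritic cell list summed to 3230 to 5477 CPM in the libraries labelled knockout and 2234 to 3191 CPM in controls. Most of that sum came from Cd74, H2-Ab1 and H2-Aa. Erythroblast genes had 6 higher of 7, led by Hbb-bs (3.79) and Hba-a1 (3.15); Hba-a1 and Hba-a2 had equal counts in all 6 libraries and are 1 measurement. They summed to 75.4 to 219 CPM in the libraries labelled knockout and 13.1 to 26.4 CPM in controls. Mast cell and basophil markers had 2 lower of 6 (Mcpt8, −1.75, and Cpa3, −1.01), with Prss34 at −1.09 not past the test. B cell markers had 1 lower of 7 (Cd79b, −1.16; Cd79a had 0.46), and T and NK cell markers none of 8 in edgeR, DESeq2 or limma-voom (at an unadjusted p under 0.05, 0 were higher and 1, Cd4 at −0.77, lower in edgeR), with Nkg7 at 0.27 and Il2rb at 0.17. Of 10 progenitor genes 5 fell, among them Flt3 (−0.68), Ly6a (−0.56), Cd34 (−0.53) and Meis1 (−0.43), and Kit (−0.34) did not pass. Hlf (−0.002) did not differ, and Mecom (0.23) had the only positive value and did not pass.

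Most of these marker counts moved when 1 library was left out (edgeR). Neutrophil genes called higher were 8 without control replicate 3 and 4 to 6 without any other library. Monocyte genes called higher were 3 without replicate 2 or 3 labelled knockout or without control replicate 1 or 3, and 8 without replicate 1 labelled knockout or control replicate 2. Tissue macrophage genes called higher were 3 without replicate 1 labelled knockout, 4 without control replicate 3 and 1 without any other library. Dendritic cell genes called higher were 0 without replicate 2 or 3 labelled knockout or control replicate 1 (6 in each at an unadjusted p under 0.05), 1 without control replicate 2, 5 without replicate 1 labelled knockout and 6 without control replicate 3. Mast cell and basophil genes called lower were 0 without replicate 2 or 3 labelled knockout (2 and 3 at an unadjusted p under 0.05), 1 without control replicate 1 or 2 and 4 without control replicate 3. Progenitor genes called lower were 1 without replicate 1 or 2 labelled knockout or control replicate 1, and 3 without replicate 3 labelled knockout or control replicate 3. With the sex term edgeR called 1 B cell gene lower and no other gene of the marker lists. At an unadjusted p under 0.05 that fit had 4 neutrophil, 5 monocyte, 1 tissue macrophage, 3 dendritic cell, 6 erythroblast, 2 B cell and 1 progenitor genes higher. Lower were 4 mast cell and basophil, 4 progenitor, 1 dendritic cell, 1 B cell and 1 T and NK cell genes.

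Per length of exon Tyrobp exceeded each of the 9 receptor genes, with and without the charged residue that holds DAP12. Tyrobp had 314 ± 20.4 CPM per kb in the libraries labelled knockout and 225 ± 39.6 CPM per kb in controls (SD, n = 3 each), and Trem3 followed with 102 ± 20.04 and 73.1 ± 28.9 CPM per kb. Lilrb4 had 27.2 ± 5.29 and 12.7 ± 1.72, Cd300a 19.7 ± 1.503 and 14.6 ± 0.625, Pirb 14.0 ± 2.99 and 8.52 ± 1.70, and Cd300lb 12.7 ± 1.70 and 9.28 ± 1.23 CPM per kb, in the same order of groups. The lowest levels per kb were those of Gp49a (10.9 ± 2.42 and 5.12 ± 0.961), Cd300lf (9.95 ± 1.52 and 4.69 ± 1.09), Cd300ld (6.53 ± 2.14 and 2.67 ± 0.975) and Trem1 (4.14 ± 0.823 and 3.05 ± 0.709). The step from Tyrobp to Trem3 and that from Trem3 to the other receptors exceeded the spread in both groups. These steps depend on the lengths used, and the annotation behind the counts is not known. Tyrobp and Trem3 have the shortest exon lengths of the set, 0.564 and 0.994 kb, against 4.645 kb for Cd300a. In CPM Trem3 (means 102 labelled knockout and 72.7 in controls) lay near Cd300a (91.7 and 67.9). Pirb, Cd300lb, Gp49a and Cd300lf followed each other with overlapping ranges in the libraries labelled knockout. Lilrb4 stood above Cd300a in every library labelled knockout and below it in every control, where the closest pair was 14.3 CPM per kb of Lilrb4 and 15.3 CPM per kb of Cd300a in replicate 2. The level of Tyrobp over the summed level of the 9 receptors was 1.47, 1.69 and 1.40 in the libraries labelled knockout and 1.62, 1.65 and 1.83 in controls, so the groups overlapped.

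**Figure D4:**
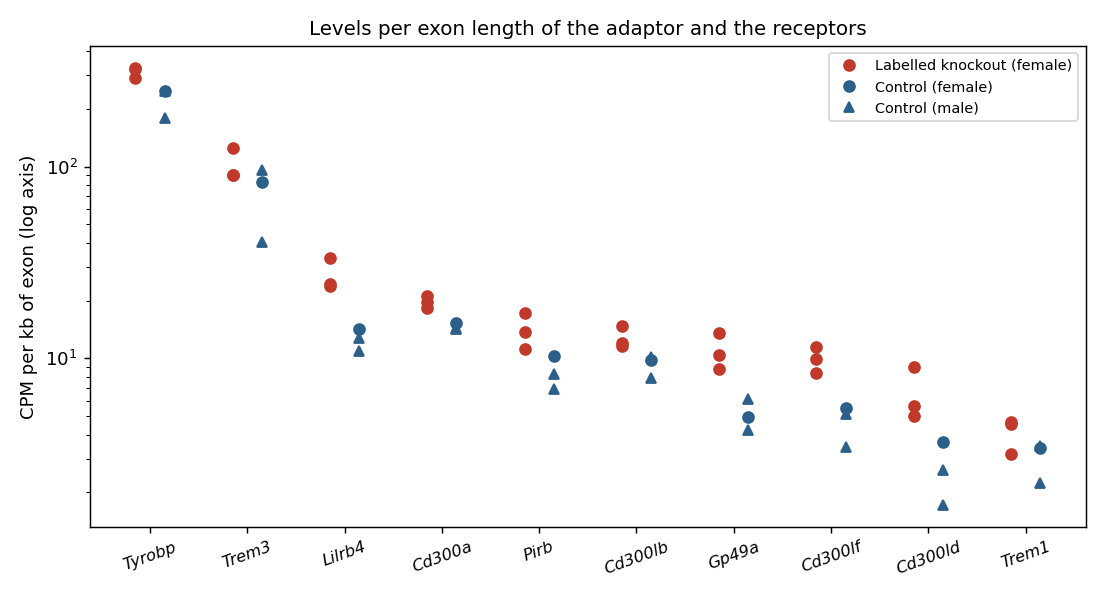
Levels in CPM per kb of exon (log vertical axis) of the adaptor and the 9 receptors in each library, ordered by their mean over all 6. Tyrobp is highest in every library and Trem3 second, and 8 receptors lie below 40 CPM per kb.

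The genes whose centred profile over the 6 libraries was most like that of Tyrobp, among 9873 symbols of sufficient level, were Sla, Nfam1, Rnf19b, Myo1f and Ctsz. Their root mean square differences from it were 0.031, 0.038, 0.044, 0.046 and 0.048 on the log2 scale. Sla encodes a Src-like adaptor, Nfam1 a receptor with an ITAM, Rnf19b a ubiquitin ligase, Myo1f a myosin and Ctsz a cathepsin. Sla had 181, 179 and 165 CPM in the libraries labelled knockout and 135, 142 and 103 CPM in controls, nearly the values of Tyrobp. By the same measure Cd300lb (0.095), Trem1 (0.135) and Cd300a (0.160) were the receptors nearest to Tyrobp, and Cd300ld (0.619) and Gp49a (0.479) the farthest.

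Other genes of the receptor families, listed by family, leaned the same way but few passed the test. Of 36 listed symbols 22 were in the table and 18 passed the filter on low counts. In edgeR, 3 rose, 0 fell and 15 did not pass, against 3.85% of all tested symbols higher and 4.58% lower, and the median log2 fold change was 0.81 against −0.00156 over all symbols. At an unadjusted p under 0.05, 9 were higher and 1 lower; DESeq2 called 5 higher and 1 lower (6.09% and 6.1% of all symbols), and limma-voom 3 and 0 (3.71% and 4.35%). The groups did not overlap, with the libraries labelled knockout higher, for 12 of the 18, where 15.1% of all tested symbols were so. Among these 12 were Pira1, Pira2, Pira4, Pira6, Pira7, Pira11 and Gm14548, whose reads may be shared, as for Pirb. In replicates 1 to 3 labelled knockout Pira1 had 47, 64 and 34 reads and Pira11 had 44, 63 and 31. The counts and the median of this list therefore do not rest on independent genes. Trem2, a lipid-sensing DAP12 receptor of macrophages and microglia, had 7.98, 10.8 and 12.2 CPM in the libraries labelled knockout, against 5.16, 5.65 and 5.17 CPM in controls (edgeR log2 fold change 0.94 with SE 0.19, adjusted p = 0.0239). The controls lay close together and below all libraries labelled knockout. Treml4, which lies beside Trem3 on chromosome 17, had 16.8, 17.2 and 28.2 CPM in the libraries labelled knockout against 8.36, 10.6 and 11.8 CPM in controls (1.0035, edgeR adjusted p = 0.0331), and AF251705, listed with the Cd300 family, had 23.0, 31.1 and 40.4 CPM against 13.6, 18.3 and 17.7 CPM in controls (0.92, edgeR adjusted p = 0.0316).

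The other family members past neither direction were mostly scarce. Lilra5 had a log2 fold change of 1.23, Cd300c of 1.39, Pira1 of 0.84 and Treml1, a receptor of platelets and megakaryocytes, of −0.89 (edgeR adjusted p = 0.0589, 0.0846, 0.118 and 0.0912). Treml2, at 183, 184 and 189 CPM in the libraries labelled knockout and 195, 190 and 217 CPM in controls, had −0.11, and Lair1, an inhibitory collagen receptor, 0.12. Pira4 and Pira7 had equal counts in 5 of 6 libraries, so these are not independent genes in the counts.

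**Figure D5:**
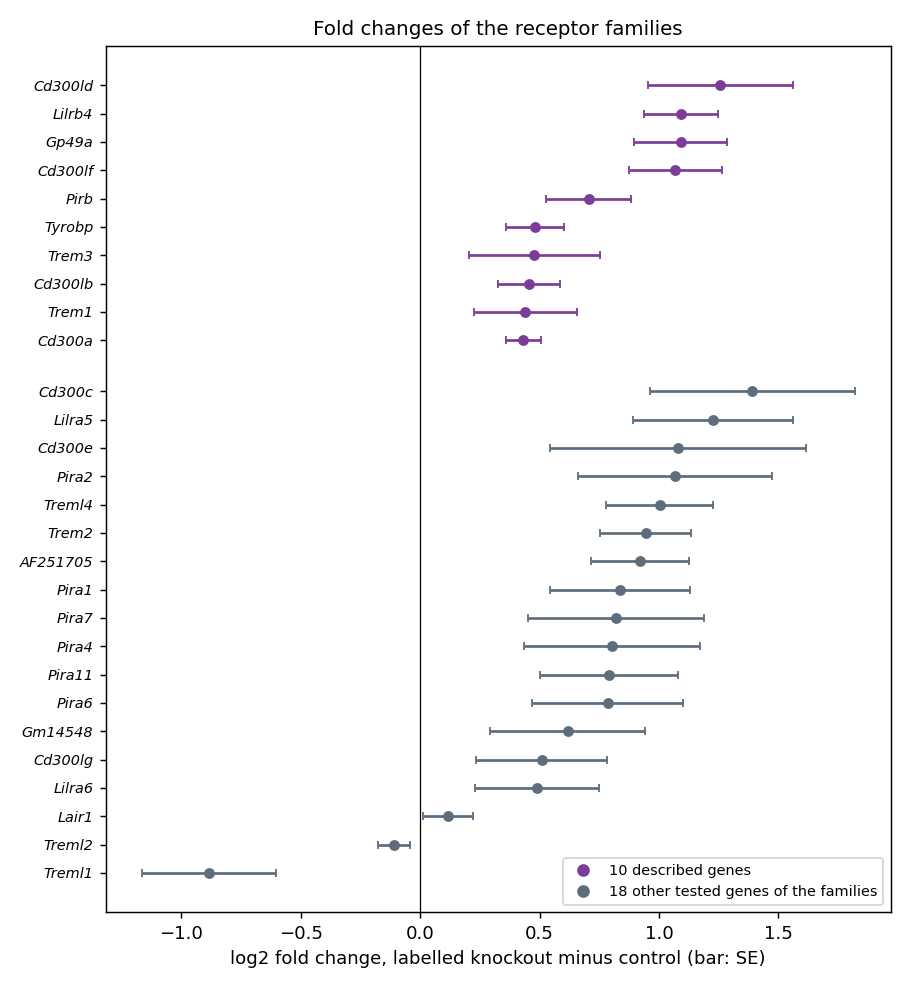
Log2 fold changes (horizontal axis, libraries labelled knockout minus controls, bars for the SE) of the 10 described genes and of 18 other tested genes of the same families. All 10 and 16 of the 18 are above 0; Treml1 and Treml2 are below.

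Receptors of other families that use DAP12, or that oppose such receptors through ITIMs, were listed as well. Of 29 listed, 22 were tested, 8 rose, 0 fell and 14 did not pass in edgeR (3.85% and 4.58% of all symbols were higher and lower), with 12 higher and 1 lower at an unadjusted p under 0.05; DESeq2 called 11 higher and limma-voom 8, and both called 0 lower. The median log2 fold change was 0.56. Inhibitory and activating members of the Pilr pair rose: the inhibitory Pilra had 37.7, 26.9 and 40.8 CPM in the libraries labelled knockout against 13.03, 16.4 and 14.1 CPM in controls (1.26, SE 0.17, edgeR adjusted p = 0.00549), and the activating Pilrb2 and Pilrb1 had log2 fold changes of 0.97 and 0.78 (edgeR adjusted p = 0.0204 and 0.0256). Sirpa, the inhibitory receptor for Cd47, had 282, 279 and 393 CPM against 180, 189 and 167 CPM in controls (0.83, SE 0.13, edgeR adjusted p = 0.01). The inhibitory Fc receptor gene Fcgr2b (0.65), the sialic acid receptor gene Siglece (0.65), Cd200r1 (0.77) and Clec4a2 (0.88) also rose. Pilra, Sirpa and Fcgr2b remained past the threshold without any 1 library. Clec5a, a DAP12 receptor, had 112, 74.6 and 77.7 CPM against 51.5, 58.6 and 20.1 CPM in controls, and with a log2 fold change of 1.01 did not pass (edgeR adjusted p = 0.102). Klrk1 (0.77), Ceacam1 (0.58) and Cd72 (−0.33) did not pass either.

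Below the receptors, 36 adaptors, kinases, linkers and phosphatases of the signalling chain were tested. In edgeR 6 rose, 2 fell and 28 did not pass, where 3.85% of all tested symbols were higher and 4.58% lower. The median log2 fold change was 0.07. At an unadjusted p under 0.05, 11 were higher and 3 lower, and DESeq2 called 8 higher and 2 lower (6.09% and 6.1% of all symbols). Fcer1g, the Fc receptor gamma chain and the other ITAM adaptor of these receptors, had 113, 117 and 131 CPM in the libraries labelled knockout against 78.0, 90.3 and 62.4 CPM in controls (0.64, SE 0.13, edgeR adjusted p = 0.0218). The Src family kinase gene Lyn (0.36), whose product phosphorylates ITAMs and ITIMs, rose too, as did the PI3-kinase subunit gene Pik3cd (0.31), the linker gene Blnk (0.68) and Malt1 (0.27). Fgr (0.72), Lcp2 (0.23), Btk (−0.19) and Ptpn6 (0.28), which encodes SHP-1, did not pass (edgeR adjusted p = 0.0695, 0.0562, 0.0788 and 0.121). Syk had 319, 317 and 302 CPM against 345, 316 and 309 CPM in controls, with a log2 fold change of −0.05, and Inpp5d, which encodes SHIP1, also had −0.05. Inppl1, which encodes the related phosphatase SHIP2, fell to 8.46, 8.99 and 11.9 CPM in the libraries labelled knockout, against 18.1, 23.1 and 26.9 CPM in controls (−1.22, SE 0.18, edgeR adjusted p = 0.00872), and the phospholipase gene Plcg1 fell as well (−0.52, edgeR adjusted p = 0.0483).

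Genes of reported ligands showed 0 higher and 1 lower of 12 tested in edgeR, where 3.85% and 4.58% of all symbols were higher and lower. At an unadjusted p under 0.05 there were 2 in each direction. DESeq2 and limma-voom each called 0 higher and 2 lower. The gene that fell was Angptl2, which encodes a secreted ligand of Pirb and of its human relative, at 1.59, 2.94 and 1.93 CPM in the libraries labelled knockout against 5.10, 4.73 and 6.13 CPM in controls (−1.28, SE 0.27, edgeR adjusted p = 0.0286). Pglyrp1, a ligand of Trem1, had 248, 183 and 182 CPM against 170, 155 and 72.7 CPM in controls (0.62), and Itgb3, Rtn4 and Itgav had −0.33, 0.18 and 0.24; none of these passed (edgeR adjusted p = 0.203, 0.0529, 0.111 and 0.188). With a sex term, where edgeR called 0.0512% of all symbols higher and 0.263% lower, no gene was called in the family, paired receptor, signalling or ligand lists; at an unadjusted p under 0.05, 3, 8, 6 and 0 were higher and 1, 0, 2 and 2 lower. Without control replicate 1, without replicate 2 and without replicate 3 of the libraries labelled knockout, the family and signalling lists each had 0 genes higher in edgeR, with 6 to 7 and 9 to 12 higher at an unadjusted p under 0.05.

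The promoters of the described genes were read for the letters bound by myeloid transcription factors. The RefSeq table (GRCm38.p6) held 7 of the 10 genes, and Lilrb4, Trem3 and Tyrobp were not among them. GAGGAA or its reverse complement TTCCTC, the core bound by PU.1 and other ETS factors, occurred within 250 bases before the start in 5 of 7, against 23.3% of 32851 promoters. TTNCNNAA or TTNNGNAA, a loose form of the C/EBP site, occurred in 6 of 7, against 36.8%. A match is a description of letters, not a site. The 250 bases before the start of Cd300lf, Cd300ld and Pirb are shown as examples of different fold change and number of matches, with GAGGAA or TTCCTC in capitals.
Cd300lf, chr11:115133993-115134242, minus strand: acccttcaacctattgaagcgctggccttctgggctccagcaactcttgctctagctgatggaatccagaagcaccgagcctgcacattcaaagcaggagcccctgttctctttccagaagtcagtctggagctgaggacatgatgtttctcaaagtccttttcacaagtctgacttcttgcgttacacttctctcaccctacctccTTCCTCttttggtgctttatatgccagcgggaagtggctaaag
Cd300ld, chr11:114989887-114990136, minus strand: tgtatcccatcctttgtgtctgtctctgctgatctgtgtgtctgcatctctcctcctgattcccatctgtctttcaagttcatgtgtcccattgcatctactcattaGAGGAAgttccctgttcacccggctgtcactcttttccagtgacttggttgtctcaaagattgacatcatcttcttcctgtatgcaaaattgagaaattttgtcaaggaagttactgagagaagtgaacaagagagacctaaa
Pirb, chr7:3720383-3720632, minus strand: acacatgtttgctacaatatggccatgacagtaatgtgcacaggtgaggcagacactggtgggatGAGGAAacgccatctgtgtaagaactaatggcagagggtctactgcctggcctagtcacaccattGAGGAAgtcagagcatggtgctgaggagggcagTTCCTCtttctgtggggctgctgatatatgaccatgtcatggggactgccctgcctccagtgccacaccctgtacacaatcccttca
Pirb had 3 such matches, at 185, 120 and 87 bases before the start, and Cd300lf and Cd300ld 1 each, at 43 and 143 bases before it. Gp49a, in the higher set, had no GAGGAA match in this window, and Cd300lb had neither motif.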

How the data were processed

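Raw counts per gene symbol, whole numbers with no normalization, were deposited by the authors for 3 libraries labelled knockout and 3 control libraries; the submitters' processing notes name STAR and mm10. For the counting tool, its annotation, its strand setting and the STAR version, the sources used here give nothing. Libraries were made from poly(A)-selected RNA with a directional kit, per the labels' protocols. No 2 libraries agreed within sampling noise (chi-square per degree of freedom at least 10.7).

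edgeR 4.0.16 (R 4.3.3) was run over the whole table with filterByExpr (minimum count 10, minimum total 15; 13679 symbols kept), TMM scaling and a quasi-likelihood F test on the group, with Benjamini-Hochberg adjustment over all tested symbols at 0.05. On counts simulated for this comparison over 13539 genes it recovered 68% of 2-fold and 94% of 4-fold changes, with 10 false among 172 calls. The 10 genes, the gene lists and the tests were chosen with earlier results of these data known. Named are the 10 genes, the list members with the smallest p, the 5 profiles nearest to Tyrobp (log2 CPM with a prior count of 2), and for each marker list the most abundant and most changed genes. Hcst, Cpa3, Bst2, Cd4, Ccr2, Malt1, Plcg1, Pilrb1, Clec4a2, Lcn2, Ifitm6, Ltf, Ngp, Flt3, Meis1, Syk, Inpp5d, Treml2, Lair1 and genes of the Y chromosome were named after their values were seen. So were Hlf, Mecom, Cd209a, Ccr9, Flt3l, H2-Aa, Hba-a2, Gm14548, Camp, Il1r2, Retnlg, Cxcr2, Mmp8, Mmp9 and the Pira genes other than Pira1. Some listed genes are counted but not reported here by name. Positions, exon lengths (basic set) and coding sequences are from GENCODE M21 on mm10; Gp49a and Lilrb4 were matched through RefSeq synonyms. Coding motifs were searched past the most hydrophobic window of the translated frame. Alternatives were other scalings and filters, DESeq2 1.42.0, limma-voom (limma 3.58.1), the replicate number as a block, a sex term, each library left out, a threshold of 0.1 and the sum of Gp49a and Lilrb4; female libraries alone were added after seeing the data.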

Additional observations from a re-analysis of the deposited data

How the results depend on the processing

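All 10 receptor and adaptor genes kept a positive log2 fold change, within 1 SD between libraries of its value, in every alternative run. The sign was largely set beforehand, since the genes were chosen on this difference. For the 8 whose groups did not overlap, leaving out 1 library could hardly reverse it. The number called of the 10, 7 in edgeR with all libraries, was 2 to 6 when 1 library was left out and 0 with the sex term (edgeR). In female libraries alone, with control replicate 2 as the only control, the median log2 fold change of the 10 was 0.40. The other alternatives called 5 to 8. Over all symbols, 526 higher and 626 lower became 119 to 440 and 171 to 544 without 1 library, 7 and 36 with the sex term, 10 and 29 in female libraries alone, 951 and 1051 at a threshold of 0.1, and 833 higher with DESeq2.

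The replicate numbers were not treated as pairs, since the labels do not pair them. Same-numbered libraries deviated with correlations of 0.29, −0.005 and 0.34 across genes. The highest correlation of replicates 1 to 3 labelled knockout with a control of another number was 0.058, 0.029 and −0.052. Replicates 1 and 3 thus went best with their own number and replicate 2 did not. Whether the numbers mark a batch was not tested. With the replicate block edgeR called 1169 higher and 1003 lower of all symbols, 5 higher and 1 lower in the family list, 10 higher in the signalling list, and 1 higher and 2 lower among ligands.

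Without 1 library, genes higher were 0 to 3 in the family list, 3 to 7 among paired receptors and 0 to 5 in the signalling list, and genes lower 0 to 1 among paired receptors, 0 to 2 in signalling and 0 to 1 among ligands. In the sex-term and female-only fits all these counts were 0. The family list had 5 higher and 1 lower with DESeq2 and at 0.1, and 5 higher with no filter; limma-voom called 1 signalling gene lower; ligands had 2 lower with DESeq2, limma-voom, upper-quartile scaling, no filter, the 1 CPM filter and a threshold of 0.1. The ligand median, 0.09 with all libraries, ran from −0.0836 to 0.164 without 1 library, negative only without replicate 3 labelled knockout. Il2rb (0.17) was −0.0960 with the sex term, −0.0983 in female libraries alone and −0.000741 to 0.346 without 1 library, negative only without control replicate 3. The cause was not tested. The level of Tyrobp per kb over the summed level of the 9 receptors averaged 1.61 by union exons and 1.602 by the longest transcript. Among marker lists with all libraries, DESeq2 called 2 tissue macrophage and 7 dendritic cell genes higher, and limma-voom 4 monocyte genes higher and 1 mast cell and basophil gene lower. With no filter the calls of higher genes numbered 8 for neutrophils, 11 for monocytes, 6 for tissue macrophages and 6 for dendritic cells, and with the replicate block 8, 13, 7 and 8. At a threshold of 0.1 these were 8, 11, 5 and 6. In female libraries alone 3 neutrophil genes were higher and 1 mast cell and basophil gene lower, with 0 in either direction in the other marker lists (edgeR). The fewest reads of any of the 10 genes in a library were 74, for Cd300ld in control replicate 1.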
